A study of Mus musculus with 18 samples.

Results

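Kidney cortex of lupus-prone mice given mycophenolate mofetil (MMF) was compared with kidney cortex of such mice given vehicle. The comparison rested on 6 of the 18 libraries in the series, chosen by their labels: 3 from MRL/lpr mice given MMF (mice 1, 14 and 27) and 3 from MRL/lpr mice given vehicle (mice 7, 17 and 36). It covered all 15035 genes with a deposited log2 value. Divided by a step taken as 1 read, the deposited values of each library summed to between 28939845 and 38961321 among the 6. Genes whose values are not whole multiples of the step are included, so these sums only approximate read totals. MRL/lpr mice carry a mutated Fas gene and develop lymphoproliferation and a lupus-like nephritis, and both groups share that mutation. The remaining libraries came from MRL/lpr mice given FK506, prednisone or a multi-target treatment, and from healthy MRL/MpJ wild type mice given vehicle, with 3 mice in each group. The labels give no dose, age or duration, and do not name the drugs of the multi-target treatment.

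Mycophenolic acid, the active form of MMF, inhibits inosine monophosphate dehydrogenase (IMPDH), the rate-limiting enzyme of guanine nucleotide synthesis. Lymphocytes depend on this pathway when they divide, and the drug is a standard treatment of lupus nephritis. In the nephritic kidney of MRL/lpr mice, macrophages, T cells and antibody-producing cells infiltrate the tissue and interferon-induced genes are high.

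The values of a gene are given on the deposited log2 scale for MMF mice 1, 14 and 27 in that order, against vehicle mice 7, 17 and 36. A difference is the MMF mean minus the vehicle mean on that scale, from 3 libraries in each group. Its standard error (SE) and p use a spread estimated from all 18 libraries in their 6 groups. A gene was said to have risen or fallen where its limma p, adjusted over all 15035 genes by the Benjamini-Hochberg method, was under 0.05. Nothing in the labels says how mice were housed or batched. The p-values therefore measure only the spread between mice within the 6 groups of the fit. Markers of the nephron were present in every one of the 6 libraries. The lowest log2 values were 15.88 for Slc34a1 (the phosphate transporter of the proximal tubule), 16.16 for Umod (loop of Henle) and 11.20 for Aqp2 (collecting duct). Fas itself stood at 7.94, 8.11 and 7.98 with MMF and at 8.09, 8.28 and 7.91 with vehicle. The lpr mutation disrupts the transcript without removing the gene, so this level does not check the genotype.

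Among the genes that passed in the main fit, far more were lower with MMF than higher. Alternatives that called more genes split them more evenly, as given below. Of the 15035 genes, 238 passed the test (1.58%), 20 of them higher (0.133%) and 218 lower (1.45%). The smallest adjusted p was 0.0429 and the largest among the 238 genes was 0.0498, so the calls sit close to the threshold: 40 genes passed at 0.045, 597 at 0.06 and 2215 at 0.1. The median difference over all genes was -0.05, and 0.06 after each library was centred on its median, and 56.0% of estimates were below 0. At an unadjusted p under 0.05 there were 4491 genes (29.9%), 1414 higher and 3077 lower. In all 238 genes every MMF library lay on one side of every vehicle library, and among all genes this held for 1863 lower (12.4%) and 805 higher (5.35%). The median size was 1.17 for the falls, with 133 of 218 beyond 1, and 1.23 for the rises, with 13 of 20 beyond 1.

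The MMF mice differed among themselves, and in most genes that passed mouse 1 was the MMF library nearest to vehicle. These genes were chosen by the difference between these same libraries, and not every list kept that order. Means over healthy kidneys in MMF mice 1, 14 and 27 were 1.98, 1.10 and 0.46 for macrophage markers (vehicle mean 2.905). For acute-phase genes they were 1.53, 2.51 and 1.76 (vehicle mean 2.785). Among the 218 genes that fell, mouse 1 was the MMF library nearest the vehicle group in 186 (85.3%), and vehicle mouse 7 was the vehicle library nearest the MMF group in 182 (83.5%). Among the 20 that rose, mouse 1 was the nearest MMF library in 17. Without MMF mouse 1 the count of calls was 5538 (2383 higher and 3155 lower), and without vehicle mouse 7 it was 1933 (324 higher and 1609 lower). Without MMF mouse 14, MMF mouse 27, vehicle mouse 17 or vehicle mouse 36 it was 0. It was also 0 when only these 2 groups were fitted, and after median centring or quantile normalization. None of the 238 genes changed sign under any of these alternatives.

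**Figure D1:**
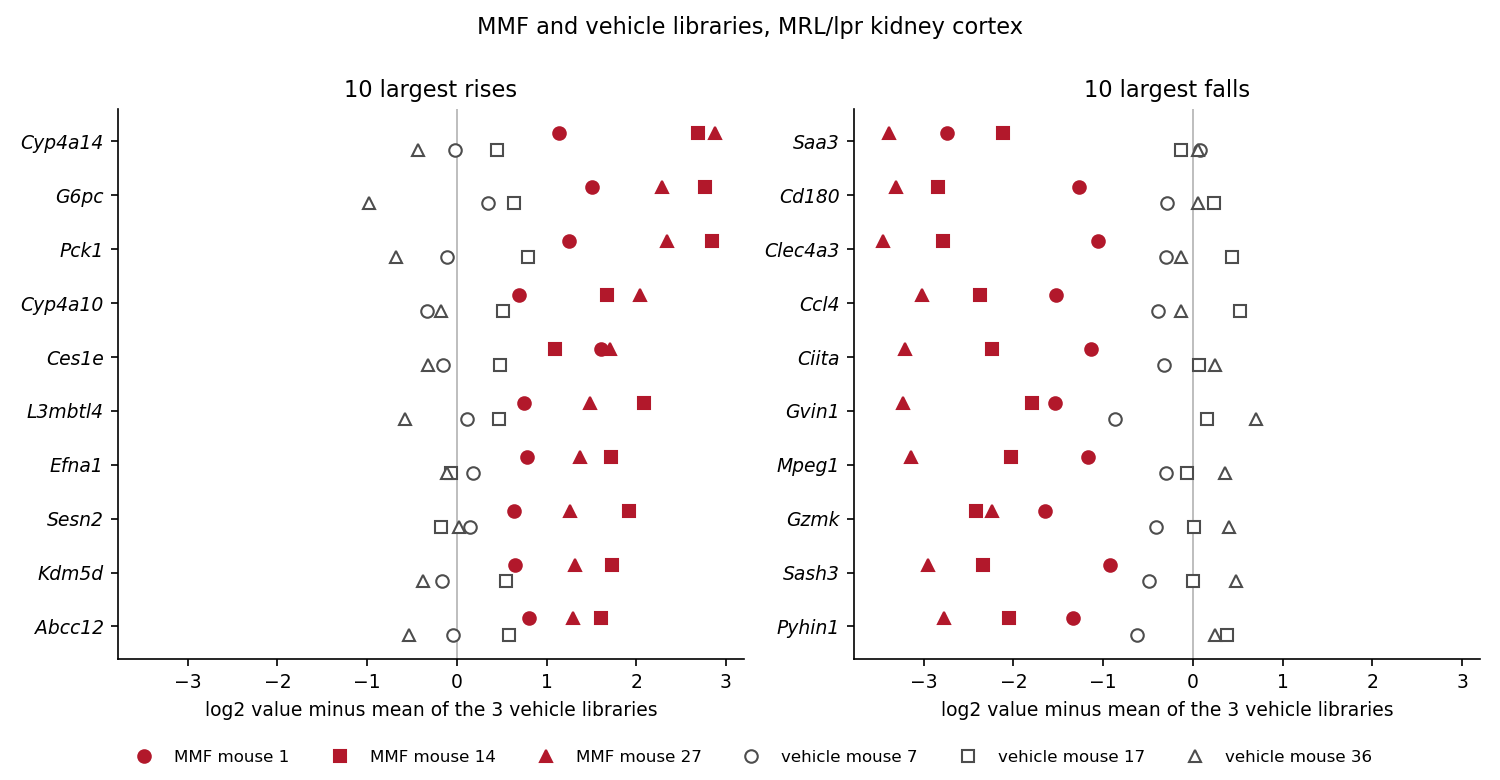
The horizontal axis gives each library's log2 value minus the mean of the 3 vehicle libraries, for the 10 largest rises (left) and the 10 largest falls (right) that passed the test. Filled red points are the MMF mice and open points the vehicle mice, each with its own symbol. In every gene the MMF points lie on one side of the vehicle points, and MMF mouse 1 is the MMF point nearest to vehicle in most.

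Neither gene of the drug target passed. Impdh1, the first IMPDH isoform, stood at 8.73, 8.69 and 8.54 with MMF, against 8.88, 8.80 and 9.43 with vehicle. Its difference of -0.38 ± 0.18 did not pass (limma adjusted p = 0.171), although the groups do not overlap. Impdh2, the isoform that dividing lymphocytes induce, stood at 11.05, 11.30 and 11.35, against 11.15, 10.84 and 11.55, and its difference was 0.05 ± 0.17 (limma adjusted p = 0.86). In the list of IMPDH and guanine nucleotide synthesis 1 of 15 members fell (6.67%, against 1.45% of all genes). It was Samhd1, an enzyme that degrades deoxynucleotides (-1.17 ± 0.27). The list had a median of -0.18, which was -0.01 without vehicle mouse 36. No gene of de novo purine synthesis passed (0 of 12, median 0.08), with a median of -0.02 without vehicle mouse 36, and the lowest p among them belonged to Atic, which catalyses the last steps to inosine monophosphate, at -0.64 ± 0.17 (limma adjusted p = 0.0581).

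The list of mycophenolate handling holds carboxylesterases, conjugating enzymes, Gusb and transporters, taken by family. Whether each product acts on the drug was not tested. Of its 21 measured genes 1 rose (4.76%, against 0.133% of all genes). In it 15 estimates were above 0 and 6 below, with a median of 0.48. The riser was Ces1e, a carboxylesterase of the family that hydrolyses ester drugs. It stood at 11.07, 10.56 and 11.17 with MMF, against 9.30, 9.94 and 9.14 with vehicle (1.47 ± 0.35, limma adjusted p = 0.0486). All 3 MMF libraries were thus above the vehicle libraries, and below the healthy range of 12.16 to 12.39. The uridine diphosphate glucuronosyltransferase Ugt1a9, of the family that inactivates mycophenolic acid, stood at 13.28, 14.53 and 14.97 with MMF, against 13.51, 13.06 and 12.30 with vehicle, and did not pass (1.30 ± 0.42, limma adjusted p = 0.0789). Gusb, the glucuronidase that cleaves such conjugates, had a difference of -0.93 ± 0.28 (limma adjusted p = 0.0719). The median of the list was 0.89 without vehicle mouse 17.

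Macrophage markers gave 9 falls, the highest count of any list, though the lists differ in length. By share the shorter NADPH oxidase list stood higher (33.3% against 31.0%), and Cybb and Fcgr3 belong to other lists as well. Of 29 measured markers of macrophages and monocytes, 9 fell (31.0%, against 1.45% of all genes) and none rose. All 29 estimates were below 0, against 56.0% of all genes, and the median was -1.86 against -0.05 over all genes. The members that passed were Mrc1, Csf2ra, Mpeg1, Spi1, Msr1, Fcgr3, Cd68, Cybb and Emr1. Spi1 encodes PU.1, the transcription factor of the myeloid lineage. It stood at 8.35, 7.36 and 6.91 with MMF, against 9.001, 9.38 and 9.82 with vehicle (-1.86 ± 0.41, limma adjusted p = 0.0459). The groups do not overlap, and the healthy libraries were lower still, at 5.84 to 6.39. Emr1, which encodes a surface antigen widely used to mark mouse macrophages, stood at 10.02, 8.86 and 8.43, against 10.71, 11.09 and 11.12, with healthy kidneys at 8.24 to 8.46. Mouse 27 thus lay within the healthy range in Emr1, and mouse 1 was nearest to vehicle. In bulk tissue, fewer cells of a type and less RNA per cell cannot be told apart.

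Scavenger and phagocytic receptors were among these falls. Mrc1, the mannose receptor, stood at 9.55, 9.08 and 8.74 with MMF, against 9.96, 10.28 and 10.52 with vehicle (-1.13 ± 0.21, limma adjusted p = 0.0429). Mpeg1, a pore-forming protein of macrophages, stood at 11.80, 10.94 and 9.83, against 12.67, 12.91 and 13.33 (-2.12 ± 0.46). The scavenger receptor Msr1 fell by 1.72 ± 0.39, and the lysosomal glycoprotein Cd68 had a difference of -2.01 ± 0.46 and also passed. In each of these genes mouse 27 was the lowest MMF library and mouse 1 the highest. Csf2ra, a chain of the receptor for granulocyte-macrophage colony-stimulating factor, fell by 1.56 ± 0.33. The mean of the whole marker list, relative to healthy kidneys, was 1.98, 1.10 and 0.46 in MMF mice 1, 14 and 27, and 2.52, 2.81 and 3.39 in vehicle mice 7, 17 and 36.

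The promoters of genes that fell together with Spi1 are shown for the core of the PU.1 site. The windows run from 250 bases before the annotated start to 50 after it (RefSeq, GRCm38.p6), 5′ to 3′ on the strand of the gene, with matches on either strand in capitals. The PU.1 core was searched as GAGGAA and its reverse complement TTCCTC, and 28.3% of the 32851 promoter windows of this length hold it. Of the 9 macrophage markers that fell, 6 had a window and 5 of these held a match, and Mrc1 and Csf2ra are shown. A match is a description of letters and not evidence of binding.
Mrc1 (chr2:14229164-14229463, plus strand): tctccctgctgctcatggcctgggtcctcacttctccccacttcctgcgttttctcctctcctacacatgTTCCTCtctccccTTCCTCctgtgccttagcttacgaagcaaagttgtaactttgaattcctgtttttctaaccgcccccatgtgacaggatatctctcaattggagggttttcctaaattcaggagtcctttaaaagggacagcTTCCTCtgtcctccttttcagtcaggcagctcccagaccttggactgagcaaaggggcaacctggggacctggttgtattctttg
Csf2ra (chr19:61228369-61228668, minus strand): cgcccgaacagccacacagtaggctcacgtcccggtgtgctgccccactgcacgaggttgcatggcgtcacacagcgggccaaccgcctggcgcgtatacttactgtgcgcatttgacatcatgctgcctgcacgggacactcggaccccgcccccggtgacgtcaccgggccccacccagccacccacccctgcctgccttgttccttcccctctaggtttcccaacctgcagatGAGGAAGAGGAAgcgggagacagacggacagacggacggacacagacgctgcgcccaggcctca

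Some receptors through which myeloid cells sense microbes and dying cells also passed. In the list of C-type lectins and inhibitory receptors 5 of 27 members fell (18.5%, against 1.45% of all genes) and none rose, with a median of -1.44. Clec4e (Mincle), which recognises mycobacterial glycolipid and dying cells, stood at 6.84, 6.57 and 5.90 with MMF, against 7.92, 8.38 and 8.42 with vehicle (-1.81 ± 0.32, limma adjusted p = 0.0429). Clec4a3, an inhibitory lectin, was the third largest of the plotted falls that passed, at 8.32, 6.59 and 5.91, against 9.07, 9.80 and 9.24 (-2.43 ± 0.56). Lilrb4, Cd300a and Clec4a1, which carry or belong to families with inhibitory motifs, fell by 1.55 ± 0.29, 1.44 ± 0.32 and 1.85 ± 0.43. Mouse 1 was the highest MMF library in all 5 of these genes.

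Toll-like receptors and their partners gave 3 falls among 27 members (11.1%, against 1.45% of all genes) and a median of -0.91. Tlr8, an endosomal receptor, stood at 6.18, 6.44 and 5.16 with MMF, against 7.83, 7.98 and 8.07 with vehicle, and at 1.27 to 3.18 in healthy kidneys (-2.04 ± 0.47, limma adjusted p = 0.0486). Tlr4, the receptor for lipopolysaccharide, stood at 7.42, 7.95 and 7.55, against 8.55, 8.71 and 9.34 (-1.23 ± 0.27). It differed from the macrophage markers in that mouse 1 was the lowest MMF library. Cd180, a Toll-like receptor homologue of B cells and myeloid cells, was the second largest of the plotted falls that passed. It stood at 6.93, 5.36 and 4.90, against 7.91, 8.44 and 8.25 (-2.47 ± 0.58).

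The phagocyte NADPH oxidase, which makes superoxide, had falls among its subunits. Of 9 measured members 3 fell (33.3%, against 1.45% of all genes). Among them were Cybb, the catalytic subunit (-1.66 ± 0.38), and the cytosolic subunit Ncf1 (-1.57 ± 0.34). Ncf1 stood at 7.91, 7.59 and 7.16 with MMF, against 8.71, 9.05 and 9.62 with vehicle. Rac2, the GTPase of the complex, was at 9.63, 8.19 and 8.19, against 9.96, 10.47 and 11.12, and did not pass (-1.84 ± 0.45, limma adjusted p = 0.0523). The Fc receptor for immune complexes Fcgr3 was the only one of 12 measured Fc receptors to fall (8.33%). It stood at 9.34, 8.47 and 7.72, against 9.82, 10.18 and 10.74. Fcgr1, Fcer1g and Fcgr4 had differences of -2.28 ± 0.56, -2.07 ± 0.51 and -2.31 ± 0.62 and did not pass, with limma adjusted p between 0.0523 and 0.0573.

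Of 23 measured chemokines 3 fell, Ccl4, Ccl6 and Ccl9, which attract monocytes and other leukocytes. Ccl4 stood at 5.52, 4.68 and 4.03 with MMF, against 6.66, 7.57 and 6.92 with vehicle (-2.31 ± 0.55, limma adjusted p = 0.0486). Ccl6 and Ccl9 fell by 2.03 ± 0.42 and 1.86 ± 0.44. Of 13 measured chemokine receptors none passed, with 10 lower at an unadjusted p under 0.05, against 3077 of all 15035 genes. Ccr2, the monocyte receptor for Ccl2, stood at 9.06, 6.31 and 6.16, against 9.71, 9.78 and 10.43 (-2.80 ± 0.76, limma adjusted p = 0.0589). In mice 14 and 27 it was below the healthy range of 7.57 to 8.11, and in mouse 1 above it. The complement receptor C3ar1 was the 1 complement gene of 25 to fall (-1.79 ± 0.43), and the purine receptor P2ry13 the 1 of 14 in its list (-1.84 ± 0.41). Single genes thus made up the 4.0% and 7.14% of these lists that fell.

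Saa3, an acute-phase protein made by macrophages and epithelium, had the largest fall of the genes that passed. It stood at 4.92, 5.55 and 4.28 with MMF, against 7.74, 7.54 and 7.72 with vehicle, a difference of -2.75 ± 0.52 (limma adjusted p = 0.0429). The 3 vehicle libraries were close together, and all 3 MMF libraries remained above healthy kidneys, at 0.06 to 1.27. Of the other acute-phase genes none of the 16 measured passed. The haptoglobin gene Hp stood at 6.99, 6.55 and 6.95, against 7.96, 10.24 and 8.20 (-1.97 ± 0.67, limma adjusted p = 0.0866). The list median of -0.66 was -0.19 without vehicle mouse 36.

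Lymphocyte markers had few members that passed. Of 22 measured T cell markers 1 fell (4.55%, against 1.45% of all genes). It was Lck, the kinase that starts T cell receptor signalling. Its values were 8.19, 6.74 and 6.72 with MMF, against 8.32, 9.30 and 9.44 with vehicle (-1.81 ± 0.42, limma adjusted p = 0.0486). The groups do not overlap, though MMF mouse 1 and vehicle mouse 7 lay next to each other. The T cell list had a median of -0.93, with 20 of 22 estimates below 0. Of 9 markers of natural killer and cytotoxic cells (median -1.28, and -0.84 without vehicle mouse 36) 1 fell (11.1%). It was the granzyme Gzmk, at 4.98, 4.21 and 4.38, against 6.21, 6.63 and 7.03 (-2.10 ± 0.34). It had the smallest unadjusted p of the 20 genes in the plot of largest changes, 1.625e-05. Ccl5, made by cytotoxic cells, was at 8.46, 6.62 and 6.25, against 8.55, 9.75 and 13.13, and did not pass (-3.37 ± 0.96, limma adjusted p = 0.0627).

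Receptors that regulate lymphocyte activation contributed 4 falls among 21 members of the costimulation and checkpoint list, with a median of -1.14. Ly9, of the SLAM family, stood at 7.74, 5.98 and 5.65 with MMF, against 8.18, 8.42 and 8.82 with vehicle (-2.02 ± 0.46). Cd48, another SLAM family member, fell by 1.82 ± 0.43, and the checkpoint receptor Lag3 by 1.47 ± 0.35. The fourth was VISTA, a myeloid and T cell checkpoint protein listed under the older symbol 4632428N05Rik, at -1.35 ± 0.31. Cd83, an activation marker of dendritic cells, was the 1 of 13 dendritic cell markers to fall (7.69%). It stood at 7.38, 7.27 and 7.83, against 8.60, 8.52 and 9.50 (-1.38 ± 0.32).

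No B cell, plasma cell or neutrophil marker passed. The B cell list had a median of -0.24 over 14 members, -0.58 without vehicle mouse 7 and -0.13 without vehicle mouse 36. Its smallest p belonged to Ptprcap, a leukocyte membrane protein (-1.54 ± 0.42, limma adjusted p = 0.0599). The plasma cell list had a median of -0.42 over 8 members, which moved to 0.07 with vehicle mouse 36 left out and to -0.06 with MMF mouse 1 left out, but to -0.72 with MMF mouse 27 left out and to -0.82 with vehicle mouse 7 left out. Igj, the joining chain of polymeric antibodies, stood at 10.67, 13.15 and 13.45, against 11.31, 11.54 and 14.08 (0.11 ± 0.78), and the groups overlapped. The neutrophil list had a median of -0.08, which reached 0.10 once MMF mouse 1 was left out and 0.03 after median centring, but -0.36 with MMF mouse 14 and -0.35 with vehicle mouse 17 left out. Its granule gene S100a8 stood at 6.90, 7.55 and 8.81, against 8.42, 5.70 and 5.55 (1.20 ± 0.98, limma adjusted p = 0.412), whereas the formyl peptide receptor Fpr2 stood at 7.04, 5.41 and 4.97, against 7.36, 8.29 and 7.75 (-1.99 ± 0.53, limma adjusted p = 0.0572).

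**Figure D2:**
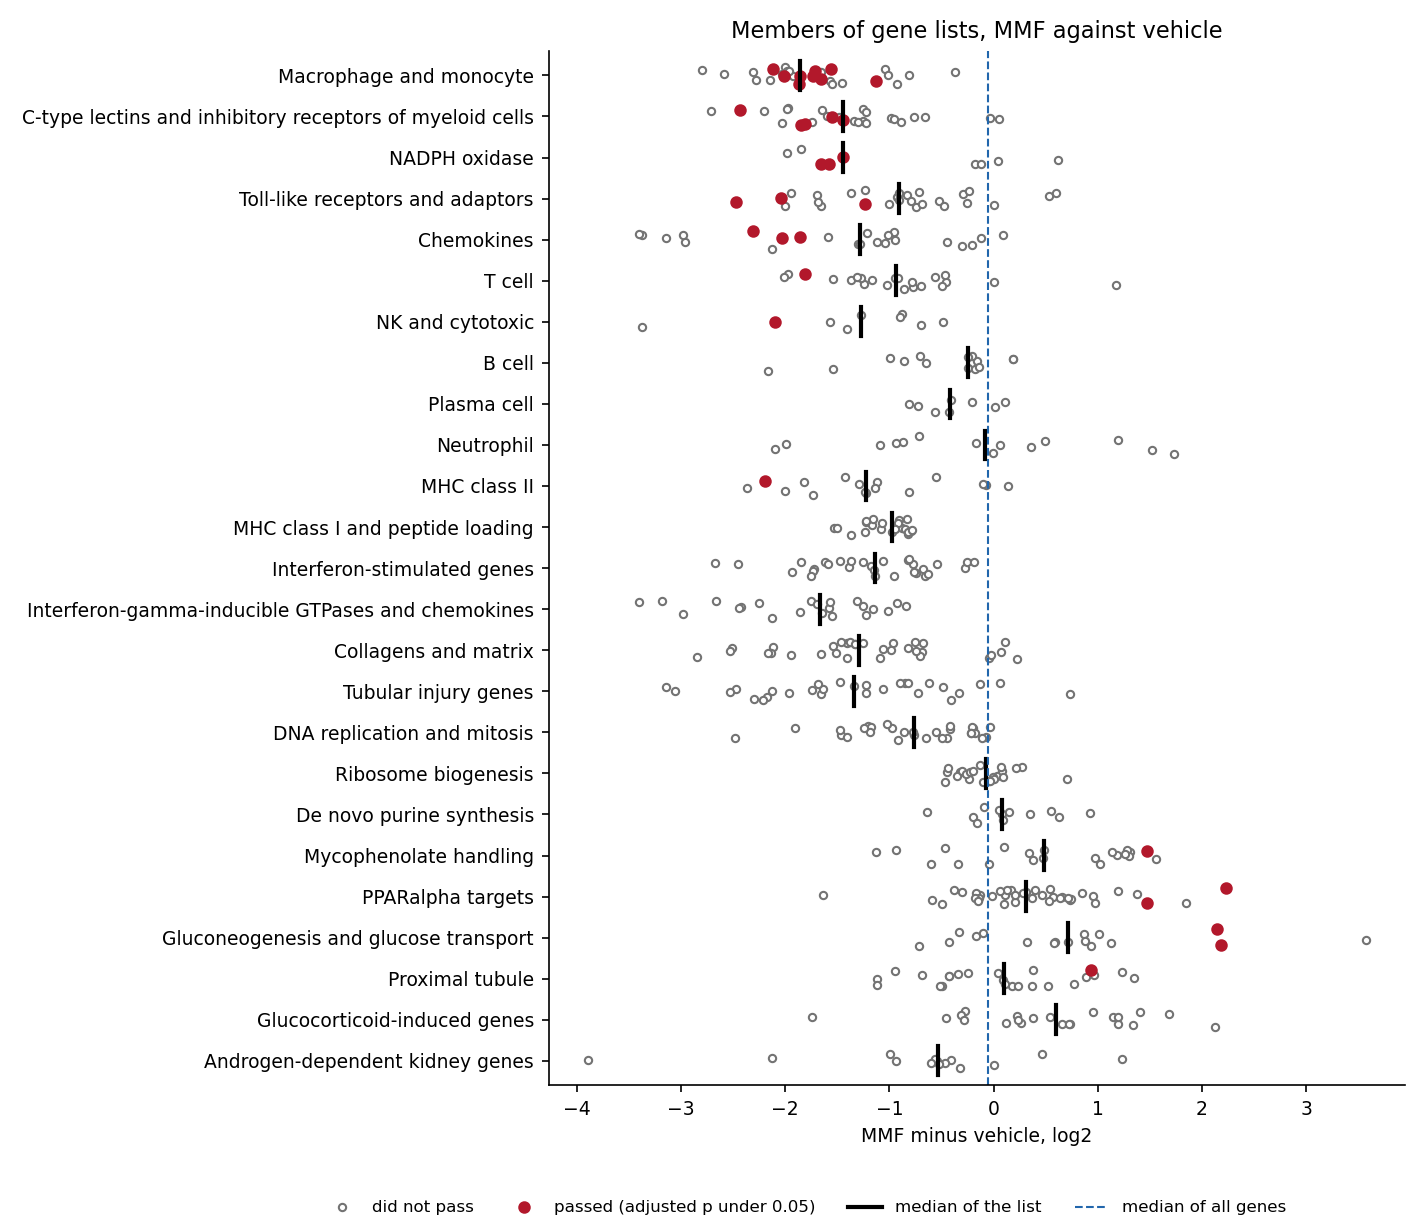
Each point is 1 measured gene of the list named at the left, placed by its MMF minus vehicle log2 difference; filled red points passed the test, black bars are list medians and the dashed line is the median of all genes at -0.05. The 9 filled macrophage points surround a median of -1.86, while the filled points above 0 belong to mycophenolate handling, PPARalpha targets, gluconeogenesis and the proximal tubule list.

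In antigen presentation the regulator of class II genes fell. Ciita, the transactivator that class II genes of the major histocompatibility complex (MHC) require, stood at 10.56, 9.45 and 8.48 with MMF, against 11.37, 11.76 and 11.94 with vehicle, and at 7.70 to 7.88 in healthy kidneys. Its difference of -2.19 ± 0.45 passed (limma adjusted p = 0.0459). It was the 1 fall among 16 members of the class II list (6.25%, against 1.45% of all genes). H2-Eb1, a class II beta chain, stood at 14.04, 12.55 and 11.62, against 13.78, 14.74 and 15.14 (-1.82 ± 0.55, limma adjusted p = 0.0709). Unlike in Ciita, MMF mouse 1 lay within the vehicle range there. The list median was -1.23, and -0.77 without MMF mouse 27. The means of the list over healthy kidneys were 2.70, 1.74 and 1.19 in MMF mice 1, 14 and 27, against 2.60, 3.23 and 3.34 in vehicle mice 7, 17 and 36.

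The promoter of H2-Eb1 is printed because class II promoters carry a conserved Y box bound by the factor NF-Y, next to the elements through which Ciita acts. Its core was searched as GATTGG and the reverse complement CCAATC, which 16.1% of the windows hold. Of 5 class II list genes looked up, 3 had a window and all 3 held a match. H2-Eb1 held 1 match on each strand, 60 and 35 bases before the start.
H2-Eb1 (chr17:34305617-34305916, plus strand): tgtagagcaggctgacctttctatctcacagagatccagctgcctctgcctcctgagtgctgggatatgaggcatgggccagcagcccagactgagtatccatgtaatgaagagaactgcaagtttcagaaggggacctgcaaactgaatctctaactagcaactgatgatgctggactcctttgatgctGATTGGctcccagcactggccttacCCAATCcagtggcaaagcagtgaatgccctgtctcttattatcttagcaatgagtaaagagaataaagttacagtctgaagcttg

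No member of the class I list or of either interferon list passed. All 21 members of the class I and peptide loading list were below 0, with a median of -0.97 and 21 at an unadjusted p under 0.05. Over all genes 56.0% were below 0, and 3077 of 15035 were lower at that unadjusted p. Nlrc5, the transactivator of class I genes, stood at 10.91, 10.46 and 9.81 with MMF, against 11.02, 11.93 and 11.91 with vehicle (-1.23 ± 0.32, limma adjusted p = 0.0556). All 30 interferon-stimulated genes were below 0 as well, with a median of -1.14 that was -0.63 without vehicle mouse 36. Zbp1, a sensor of Z-form nucleic acids in that list, stood at 7.82, 6.57 and 5.63, against 7.83, 9.18 and 10.35. MMF mouse 1 and vehicle mouse 7 were thus all but equal in it. The list of GTPases and chemokines induced by interferon gamma had a median of -1.67 over 22 members. Gbp2, a guanylate-binding protein, stood at 13.28, 12.06 and 10.24, against 13.47, 14.98 and 14.39 (-2.42 ± 0.72, limma adjusted p = 0.0707).

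Sensors of cytosolic nucleic acids contributed 3 falls among 19 members (15.8%, against 1.45% of all genes). Pyhin1, of the interferon-inducible p200 family, stood at 5.92, 5.21 and 4.48 with MMF, against 6.63, 7.64 and 7.50 with vehicle (-2.06 ± 0.49, limma adjusted p = 0.0498). Mavs, the mitochondrial adaptor of the RNA sensors, fell by a small amount, at 11.82, 11.59 and 11.68, against 12.10, 12.15 and 11.97 (-0.37 ± 0.09). Healthy kidneys held it at 12.04 to 12.05, above all 3 MMF libraries. Gvin1, a large interferon-inducible GTPase, was among the 10 largest falls at -2.18 ± 0.51, as was Sash3, a lymphocyte adaptor protein, at -2.07 ± 0.48. The kinase Ikbke was the 1 of 18 members of the NF-kappaB list to fall (5.56%), by -1.79 ± 0.38. The list median of -0.61 was -0.21 without vehicle mouse 36.

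The list of gluconeogenesis and glucose transport had 2 rises among 17 members (11.8%, against 0.133% of all genes), G6pc and Pck1, and a median of 0.72. G6pc encodes the catalytic subunit of glucose-6-phosphatase, which releases free glucose. It stood at 14.9997, 16.25 and 15.78 with MMF, against 13.84, 14.12 and 12.51 with vehicle (2.19 ± 0.40, limma adjusted p = 0.0429). Pck1, the cytosolic phosphoenolpyruvate carboxykinase, stood at 16.84, 18.44 and 17.93, against 15.47, 16.38 and 14.91 (2.15 ± 0.47, limma adjusted p = 0.0459). In both genes mice 14 and 27 exceeded the healthy range, which was 14.91 to 15.46 for G6pc and 17.17 to 17.29 for Pck1, and in both vehicle mouse 36 was the lowest library. The list median was 0.46 without MMF mouse 14 and 0.44 without vehicle mouse 36.

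Igfbp1, a binding protein for insulin-like growth factors that insulin represses, had the largest difference of the list but did not pass. It stood at 9.70, 14.91 and 13.42 with MMF, against 9.93, 9.09 and 8.29 with vehicle (3.57 ± 0.95, limma adjusted p = 0.0572). Mouse 1 lay within the vehicle range, and mice 14 and 27 were above every other library of the comparison. The SD of Igfbp1 was 2.68 with MMF and 0.82 with vehicle, so its SE from all groups understates the spread of the MMF mice. Slc37a4, the transporter that brings glucose-6-phosphate to G6pc, stood at 12.08, 12.75 and 12.79, against 12.14, 12.01 and 10.67 (0.94 ± 0.32, limma adjusted p = 0.0881).

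A pair of fatty acid hydroxylases rose. Of 39 measured targets of the fatty acid receptor PPARalpha 2 rose (5.13%, against 0.133% of all genes) and none fell. In this list 28 were above 0, and the median was 0.32. Cyp4a14 had the largest rise of the genes that passed, at 14.47, 16.02 and 16.22 with MMF, against 13.31, 13.79 and 12.91 with vehicle (2.23 ± 0.39, limma adjusted p = 0.0429). Cyp4a10, on the same chromosome, stood at 13.69, 14.67 and 15.03, against 12.65, 13.50 and 12.82 (1.47 ± 0.27). Both encode omega-hydroxylases of fatty acids, and in both mouse 1 was the MMF library nearest to vehicle. Cyp4a10, Cyp4a31 and Cyp4a32 are close paralogues, so how reads were divided among them is uncertain. Cyp4a32 and Cyp4a31 had differences of 0.95 ± 0.23 and 0.73 ± 0.19, with limma adjusted p of 0.0523 and 0.0565. Leaving out MMF mouse 1 or vehicle mouse 36 brought the median of the PPARalpha list to 0.18, and leaving out vehicle mouse 17 brought it to 0.49.

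No member of the respiratory chain or citric acid cycle lists passed. The respiratory chain and ATP synthase list had a median of 0.24 with 33 of 37 members above 0, and 0.02 without vehicle mouse 36. The citric acid cycle list had a median of 0.21 with 16 of 20 above 0, and -0.06 without that mouse.

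Sesn2, a stress-induced inhibitor of mTORC1 that belongs to the p53 target and amino acid stress lists, rose. It stood at 11.86, 13.15 and 12.48 with MMF, against 11.37, 11.05 and 11.25 with vehicle (1.27 ± 0.23, limma adjusted p = 0.0429). It was the 1 riser of 18 p53 targets, whose median was -0.18, and of 14 amino acid stress genes, whose median was -0.65. This 1 gene was 5.56% and 7.14% of the lists, against 0.133% of all genes that rose. The stress factor Atf4 stood at 12.07, 12.01 and 11.67, against 12.12, 12.59 and 12.77 (-0.57 ± 0.16, limma adjusted p = 0.0602). Pmaip1 (Noxa), a p53 target, stood at 9.55, 8.998 and 9.06, against 10.01, 10.34 and 11.76 (-1.50 ± 0.39, limma adjusted p = 0.0535). These members lay below 0, whereas Sesn1, a relative of Sesn2 among the p53 targets, lay above it. Sesn1 stood at 9.84, 12.02 and 11.31, against 10.05, 10.11 and 9.73, with MMF mouse 1 within the vehicle range (1.10 ± 0.39, limma adjusted p = 0.0989).

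Genes of dividing cells were lowest in MMF mice 14 and 27, and none passed. All 29 genes of DNA replication and mitosis had estimates below 0, against 56.0% of all genes. Their median of -0.76 was -0.42 without vehicle mouse 36. Mki67, the proliferation antigen, stood at 8.92, 6.15 and 6.03 with MMF, against 7.97, 9.76 and 10.83 with vehicle (-2.49 ± 0.89, limma adjusted p = 0.0984). Mouse 1 fell within the vehicle range and mice 14 and 27 below the healthy one of 8.01 to 8.46. Ribosome biogenesis genes had a median of -0.07 over 24 members, none of which passed, and the median was 0.05 after median centring and -0.02 without vehicle mouse 36.

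Matrix and tubular injury genes showed large differences that were smaller without vehicle mouse 36. The collagen and matrix list had a median of -1.29 over 32 members and the injury list -1.33 over 29, with none passing in either. Without vehicle mouse 36 these medians were -0.63 and -0.61. Every MMF library lay below every vehicle library in 56.2% of the matrix list and 27.6% of the injury list, against 12.4% of all genes. Col1a1, a fibrillar collagen chain, stood at 10.63, 8.81 and 8.85 with MMF, against 10.61, 11.07 and 14.13 with vehicle (-2.51 ± 0.87, limma adjusted p = 0.0926). Vim, an intermediate filament of mesenchymal and injured tubular cells, stood at 11.62, 10.96 and 10.64, against 11.86, 12.49 and 13.82 (-1.65 ± 0.46, limma adjusted p = 0.0614). Mmp19, a matrix metalloprotease, was the 1 member of 28 matrix proteases and inhibitors to fall (3.57%, against 1.45% of all genes). It stood at 6.01, 6.46 and 5.70, against 7.37, 7.49 and 7.44 (-1.37 ± 0.32). In that gene mouse 36 was not apart from the other vehicle mice.

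In the nephron, the 24 proximal tubule markers had a median of 0.10. It was -0.15 without MMF mouse 1, -0.29 without vehicle mouse 36 and 0.43 without vehicle mouse 17, so its direction depended on single libraries, and it was -0.04 after quantile normalization. No loop of Henle, collecting duct, podocyte, mesangial or endothelial marker passed, with medians of 0.29, 0.04, -0.10, -0.19 and 0.05. The podocyte median was 0.01 after median centring, and those of collecting duct and endothelium fell below 0 without vehicle mouse 36. Loop of Henle markers had a median of -0.10 without vehicle mouse 36. The podocyte and mesenchymal factor Tcf21 stood at 8.82, 8.08 and 7.44, against 9.18, 9.18 and 9.16 (-1.05 ± 0.28, limma adjusted p = 0.0561).

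MMF mice 14 and 27 shared a pattern in hormone-responsive genes that mouse 1 did not, and it was also seen in mice of the other drug arms. Relative to healthy kidneys, glucocorticoid-induced genes had means of 0.24, 1.82 and 1.09 in MMF mice 1, 14 and 27, against 0.36, 0.38 and 0.79 in vehicle mice 7, 17 and 36. None of the 22 members passed, and the median of 0.60 was 1.09 without MMF mouse 1 and 0.15 without mouse 14, and 0.39 without vehicle mouse 7. Klf9, a transcription factor induced by glucocorticoids, stood at 11.98, 14.02 and 14.06, against 12.49, 12.41 and 11.57 (1.20 ± 0.45, limma adjusted p = 0.107). Androgen-dependent kidney genes had means of -0.69, -1.73 and -1.93, against -0.755, -0.666 and -0.855 in the vehicle mice. None of the 14 passed, and the median of -0.53 was -1.13 without MMF mouse 1 and -0.34 without mouse 14. Kap, the androgen-regulated kidney protein of the proximal tubule, stood at 15.87, 10.71 and 7.79, against 15.03, 16.92 and 14.12 (-3.90 ± 1.88, limma adjusted p = 0.177). The largest gap within the MMF group was thus wider than the difference between the groups. Havcr1, the injury marker KIM-1, followed the same order, at 12.20, 8.94 and 7.24, against 12.04, 12.43 and 13.09 (-3.06 ± 1.24, limma adjusted p = 0.125). In the other drug arms glucocorticoid-induced means ran from 0.319 to 0.815 (FK506), 0.341 to 1.35 (prednisone) and 0.232 to 1.023 (multi-target). Androgen-dependent means ran from -1.319 to -0.413, -1.764 to -0.585 and -1.49 to -0.57. FK506 mouse 3, prednisone mouse 35 and multi-target mouse 18 had the highest of the former and the lowest of the latter in their arms. What sets MMF mice 14 and 27 apart from mouse 1 was not tested.

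**Figure D3:**
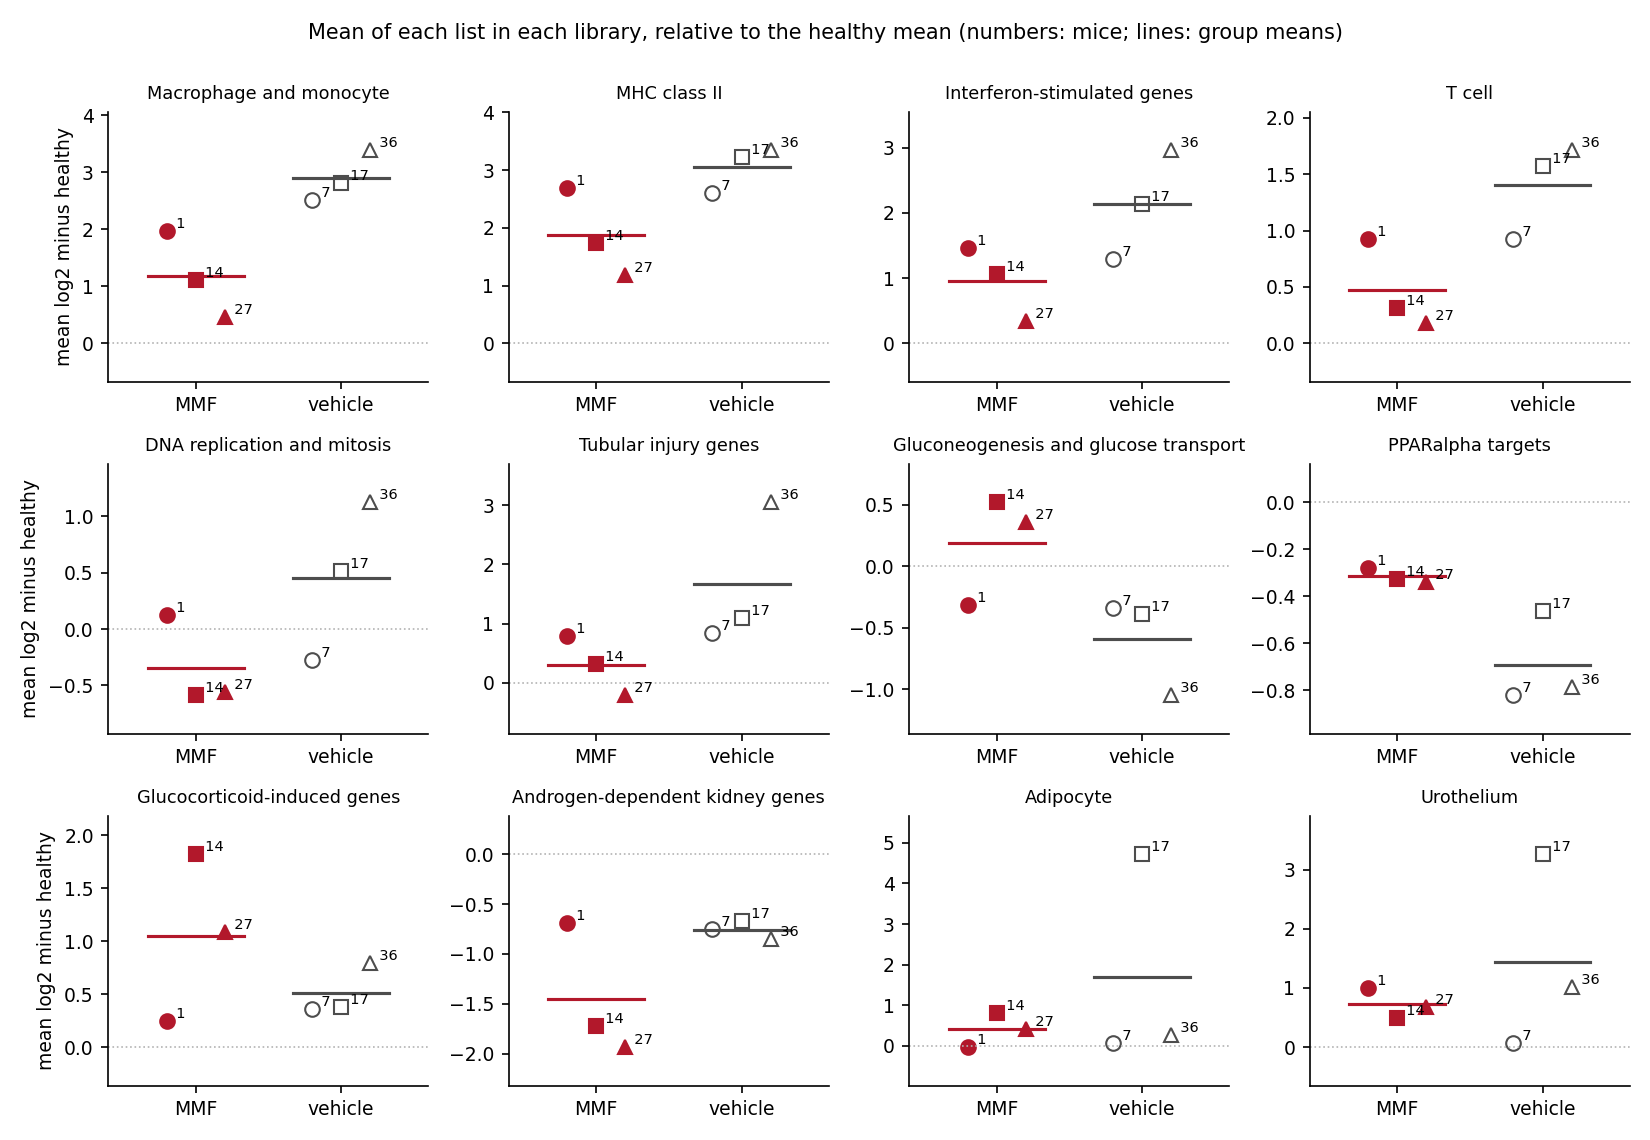
Each panel gives the mean log2 value of the measured members of 1 list, minus the mean of the 3 healthy libraries, for the 3 MMF mice (red, left) and the 3 vehicle mice (grey, right), with mouse numbers and group means. Macrophage means do not overlap between the groups, MMF mouse 1 lies near the vehicle mice for class II, T cell, gluconeogenic and hormone-responsive genes, and adipocyte and urothelium means are high in vehicle mouse 17 alone.

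Transcripts of tissue next to the kidney were present in a vehicle library. Adipocyte markers stood at -0.03, 0.82 and 0.42 over healthy kidneys in the MMF mice. They stood at 4.72 in vehicle mouse 17, while the other 2 vehicle mice had 0.064 and 0.275. Urothelium markers had a mean of 3.26 in vehicle mouse 17, with the other 5 libraries between 0.065 and 1.014. Markers of lymphoid organ stroma had means of 0.75, 1.24 and 0.84 with MMF, against 1.018, 2.185 and 2.269 with vehicle. None of the 13 adipocyte, 8 urothelium or 5 lymphoid stroma markers passed. Without vehicle mouse 17 the macrophage estimates kept their sign in all 9 members that fell, though no gene passed, and the part of this tissue in the result was not tested.

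Several genes of the 10 largest rises have other roles. Efna1, a ligand of Eph receptors, stood at 10.46, 11.39 and 11.04 with MMF, against 9.86, 9.60 and 9.56 with vehicle (1.29 ± 0.24, limma adjusted p = 0.0429), and all MMF libraries exceeded the healthy range of 9.70 to 10.05. Abcc12, a transporter of the ATP-binding cassette family, rose by 1.23 ± 0.25, and L3mbtl4, a gene of the malignant brain tumour domain family, by 1.44 ± 0.34. Kdm5d, a histone demethylase gene of the Y chromosome, stood at 8.68, 9.77 and 9.35, against 7.87, 8.57 and 7.65 (1.24 ± 0.29, limma adjusted p = 0.0486). Xist, which is transcribed from the inactive X chromosome of females, was at 12.62, 13.53 and 13.98, against 13.53, 13.62 and 13.87. The Y-linked genes Ddx3y and Uty had differences of 0.13 ± 0.24 and -0.02 ± 0.15. Kdm5d has a close X-linked relative, Kdm5c, so the source of its reads is uncertain. Kdm5c itself was at 12.28, 11.86 and 11.84, against 12.33, 12.55 and 12.42 (-0.44 ± 0.14, limma adjusted p = 0.0797).

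On GRCm38, Cyp4a14 (chromosome 4, 115486200 to 115496142, minus strand) and Cyp4a10 (chromosome 4, 115518264 to 115533649, plus strand) lie on the same chromosome. G6pc lies on chromosome 11 from 101367561 to 101377903, Pck1 on chromosome 2 from 173153048 to 173159273 and Ciita on chromosome 16 from 10480059 to 10528418. Saa3 lies on chromosome 7 from 46711998 to 46715700 on the minus strand.

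To see where MMF differed from the other treatments, it was compared with each of them in the same fit, all sharing the MMF libraries. No gene passed against FK506 (0% of 15035, 850 genes or 5.65% at an unadjusted p under 0.05, smallest adjusted p 0.0659), prednisone (0%, 2058 genes or 13.7%, 0.119) or the multi-target treatment (0%, 1126 genes or 7.49%, 0.059), and limma-voom called 0 in each as well. A p that misses the threshold does not show that the treatments act alike. Sesn2 and Saa3 below were chosen by their difference from vehicle in the same MMF libraries, which favours an extreme MMF mean. FK506 mouse 12 stood apart in markers of other tissue and cells. Its adrenal markers were at 4.215 over healthy kidneys, while the other FK506 mice had 0.067 and 0.423, and its neutrophil markers at 3.091, while those had 1.302 and 1.459. Without it and vehicle mouse 17 the count against FK506 was again 0. Sesn2 averaged 12.50 ± 0.64 with MMF, 11.40 ± 0.15 with FK506, 11.67 ± 0.21 with prednisone and 11.41 ± 0.22 with the multi-target treatment (SD, n = 3 each). Its differences were 1.10 ± 0.23 from FK506, 0.82 ± 0.23 from prednisone and 1.09 ± 0.23 from the multi-target treatment, with limma adjusted p of 0.686, 0.232 and 0.512. Saa3 averaged 4.91 ± 0.64 with MMF, 6.48 ± 1.12 with FK506, 7.54 ± 0.75 with prednisone and 6.87 ± 0.30 with the multi-target treatment (SD, n = 3 each). Its difference from prednisone was -2.63 ± 0.52 (limma adjusted p = 0.17).

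Cyp4a14, G6pc and Pck1, the 3 largest rises that passed, had their highest group mean with MMF, and none of them passed against another drug. They were chosen for their rise in the same MMF libraries, so a high MMF mean was favoured by the choice. Cyp4a14 averaged 15.57 ± 0.96 with MMF, 14.75 ± 0.32 with FK506, 14.13 ± 0.55 with prednisone and 14.73 ± 0.26 with the multi-target treatment, against 13.34 ± 0.44 with vehicle and 14.77 ± 0.08 in healthy kidneys (SD, n = 3 each). G6pc averaged 15.68 ± 0.63 with MMF, 14.90 ± 0.23 with FK506, 14.79 ± 0.56 with prednisone and 14.61 ± 0.33 with the multi-target treatment. Pck1 with MMF exceeded the other arms by 1.04 ± 0.47 (FK506), 1.24 ± 0.47 (prednisone) and 1.06 ± 0.47 (multi-target). Ces1e, another riser, did not follow this order: its difference was -0.18 from FK506, 0.20 from prednisone and 0.20 from the multi-target treatment. The medians of MMF minus FK506, prednisone and multi-target were 0.04, 0.11 and 0.09 for PPARalpha targets and 0.09, 0.23 and 0.14 for gluconeogenesis. They were -0.06, 0.11 and -0.10 for the citric acid cycle and -0.07, 0.10 and -0.13 for the respiratory chain. The mean of the PPARalpha list stayed below healthy kidneys with MMF, at -0.316. For Mrc1 the difference from FK506 was -0.14 ± 0.21 and that from prednisone -0.72 ± 0.21. The medians of the macrophage list were -0.49 against FK506, -1.18 against prednisone and -0.37 against the multi-target treatment, beside -0.04, -0.09 and -0.04 over all genes. Those of the MHC class II list were -0.01, -0.58 and -0.01.

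**Figure D4:**
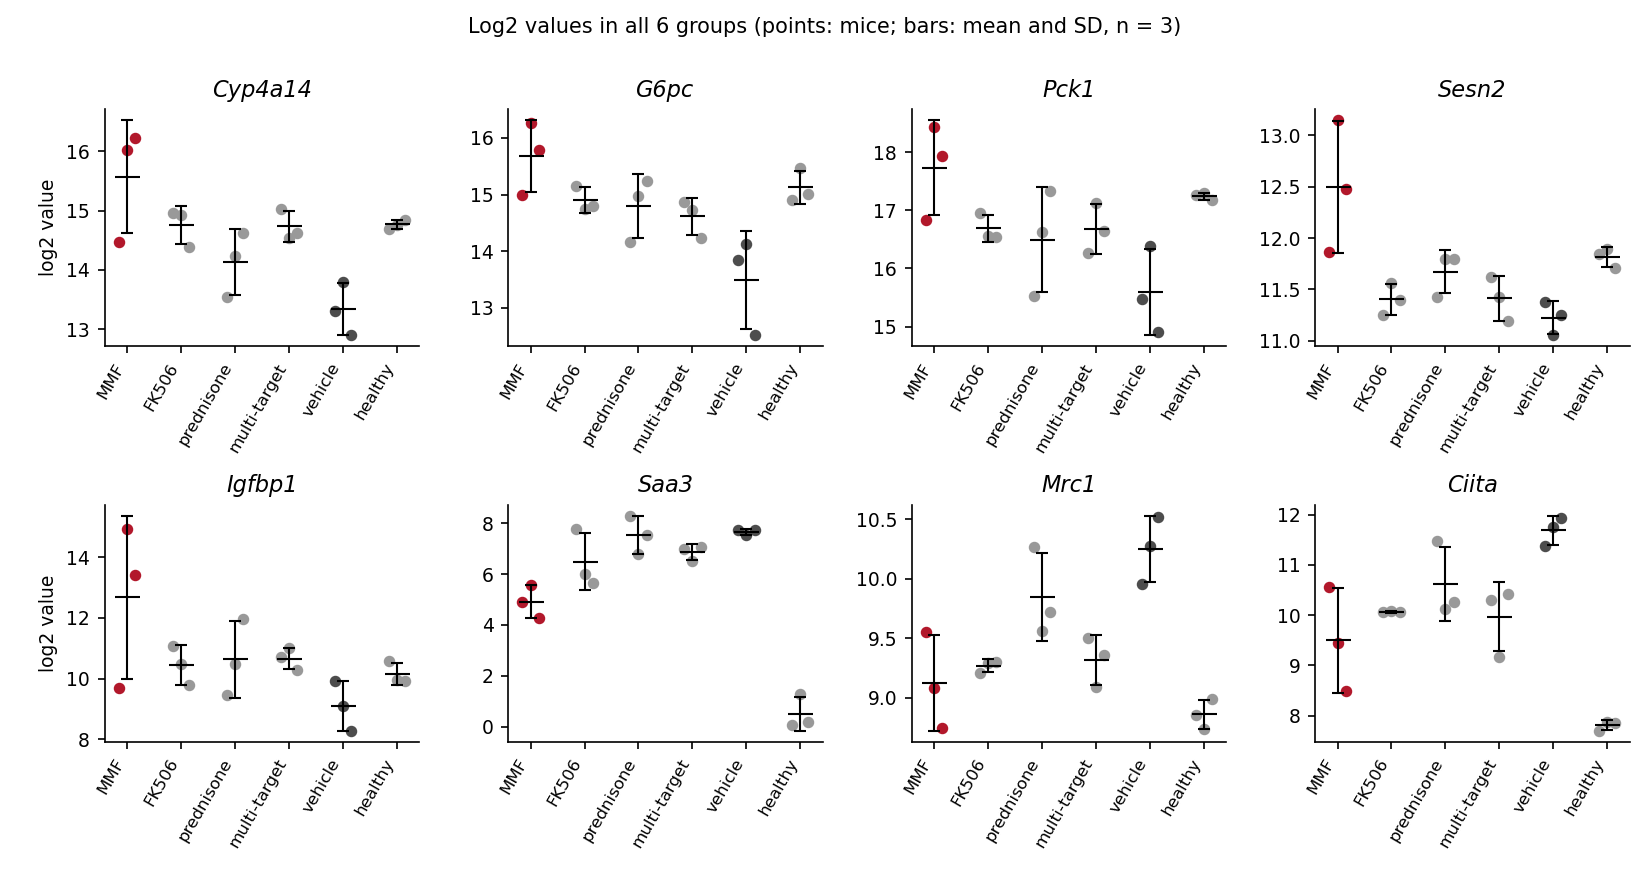
Log2 values of 8 genes in each mouse of the 6 groups, with the mean and SD of 3 mice as bars. The genes were named by their difference between these MMF libraries and vehicle, which favours an extreme MMF mean. MMF mice are highest in Cyp4a14, G6pc, Pck1 and Sesn2 by group mean and lowest of the MRL/lpr groups in Saa3, Mrc1 and Ciita, and the 3 MMF values of Igfbp1 spread from 9.70 to 14.91.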

How the data were processed

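RNA of frozen kidney cortex was sequenced from 18 mice, per the labels' protocols, and the authors deposited 1 table of log2 values per gene. Limma and the mouse build mm10 appear, without versions, among the tools and builds of the submitters' processing notes. Values are whole multiples of a step for 75.0 to 75.5% of all genes in a library (within 0.001 reads), while 3388 genes were whole in 1 library or fewer. Read totals were approximated from this step over all genes, whole or not.

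A limma group-means model with a mean-variance trend (limma 3.58.1, R 4.3.3) was fitted to all 18 libraries and 15035 genes with 12 residual degrees of freedom, and tested on simulated data with 200 changed genes. P-values were adjusted by Benjamini-Hochberg at 0.05. An exact permutation test of 3 against 3 cannot go below 0.1. Genes were named by rule: the 10 largest rises and falls that passed, and in each list described every member that passed and otherwise those of smallest p up to 4. Outside that rule, and chosen after their values were seen, are S100a8, Igj, Col1a1, Havcr1, Kdm5c, Xist, Ddx3y, Uty and the nephron markers. The comparison and the lists were chosen with earlier results of these data known. Of the genes that passed, 11 falls and 1 rise carry only a clone, model or date name. Alternatives covered scaling, filtering, test, libraries left out and threshold. Some genes are not reported here.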

Additional observations from a re-analysis of the deposited data

How the results depend on the processing

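For MMF against vehicle, 0 genes passed with only the 2 groups, with only the MRL/lpr libraries, after quantile normalization or after median centring. The count was also 0 without vehicle mouse 17 and FK506 mouse 12. It was 28 without the lowest 25% of genes, and 6753 with array weights (2980 higher and 3773 lower). Leaving out 1 library gave 0 to 5538. Chosen after seeing the data, an adjusted p under 0.1 gave 2215. Leaving out vehicle mouse 36 and MMF mouse 1, also chosen then, gave 4469 (2038 higher and 2431 lower). Limma-voom gave 223, and 276 on recovered reads. Where fewer libraries or genes entered, that is part of the alternative; otherwise the cause was not tested. Against FK506, array weights gave 4023, leaving out 1 library 0 to 1383, p under 0.1 gave 1, and leaving out vehicle mouse 36 and MMF mouse 1 gave 1917. Against prednisone these were 2739, 0 to 2419 and 3420, with none at 0.1. Against the multi-target treatment they were 6935, 0 to 2521, 1 and 3180, and 1 without the lowest 25% of genes. The differences that turned had not passed in their own comparison, although Mrc1 and Ciita, which turned against another drug, passed against vehicle. Over the libraries left out in turn, the difference from vehicle spanned -0.0876 to 0.295 for Ddx3y, -0.173 to 0.0117 for Fas, -0.403 to 0.994 for Igj, -0.119 to 0.235 for Impdh2, -0.0991 to 0.652 for Slc34a1, -0.122 to 0.718 for Umod, -0.0632 to 0.0427 for Uty and -0.597 to 0.0835 for Xist. In the same way Mrc1 spanned -0.354 to 0.0488 against FK506 and -0.400 to 0.00216 against the multi-target treatment, and Ciita -1.003 to 0.0353 against the multi-target treatment. With array weights Ddx3y was -0.187, Slc34a1 -0.236 and Xist 0.133. Without vehicle mouse 36 and MMF mouse 1, Ddx3y was -0.254, Slc34a1 -0.370, Umod -0.0573 and Xist 0.182. Without vehicle mouse 17 and FK506 mouse 12, Fas was 0.0117, Igj -0.275, Impdh2 -0.119 and Uty 0.0427. Quantile normalization gave 0.142 for Fas and 0.178 for Uty, median centring 0.0345 and 0.101, and voom on recovered reads -0.0174 for Impdh2. No paired analysis was possible because the MMF mice (1, 14 and 27) and the vehicle mice (7, 17 and 36) share no replicate number.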

Other observations

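Several genes that passed belong to none of the lists and were chosen after their values were seen. Signalling genes of leukocytes were among the falls. Ptprc, the leukocyte common antigen CD45, stood at 10.59, 9.80 and 9.52 with MMF, against 11.12, 11.89 and 11.81 with vehicle (-1.64 ± 0.34). The kinases Syk and Btk, which act downstream of antigen and Fc receptors, fell by 1.79 ± 0.36 and 1.26 ± 0.27. The integrin chain Itgb2, the actin regulator Coro1a and the lymphoid transcription factor Ikzf1 fell by 2.04 ± 0.43, 1.69 ± 0.40 and 1.35 ± 0.29. MMF mouse 1 was the highest MMF library in all 6 genes.

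Among the 20 rises, 8 had every MMF library above every healthy library. Rassf10 stood at 8.08, 8.05 and 8.001 with MMF, against 6.96, 6.84 and 7.06 with vehicle and 6.58 to 6.80 in healthy kidneys (1.09 ± 0.22). It differed from the other rises named here in that the 3 MMF libraries were close together. Frmd4b stood at 12.81, 13.06 and 12.74, against 12.02, 12.20 and 11.60, with healthy kidneys at 11.74 to 11.87 (0.93 ± 0.21). Of the 218 falls, 79 (36.2%) stayed above every healthy library and 43 (19.7%) lay below every healthy library.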
